A study of Rattus norvegicus with 18 samples.

Results

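Transcripts of the voltage-gated calcium and sodium channels, the HCN channels and the TRP channels were examined in rat hippocampus. Members were the probe sets that carry a single gene symbol beginning with Cacn, with Hcn or Scn and a digit, or with Trp, a subfamily letter and a digit. Where a gene had several probe sets, the one with the highest mean signal was used. This gave 55 genes, read by 71 probe sets, of 10412 genes with a single symbol on the array. They comprised 10 pore-forming calcium channel subunits, 2 alpha2delta, 4 beta and 8 gamma subunits, 9 sodium channel alpha and 3 beta subunits, and 3 HCN genes. The TRP genes were 5 of the TRPC, 5 of the TRPM and 5 of the TRPV subfamily, together with Trpc4ap, which encodes a protein that binds TRPC4 and is not itself a channel.

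Total RNA was hybridised to 18 Affymetrix arrays, 1 per sample, from rats of 3 diets in a study of learning after fetal alcohol exposure. Alcohol-diet rats gave 4 arrays after CFC training, a procedure that the labels do not spell out, and 4 from naive animals. Isocaloric-diet rats gave 4 trained and 2 naive arrays, and control-diet rats 2 trained and 2 naive arrays. The isocaloric diet is the usual calorie-matched control for alcohol feeding. Strain, age, sex, dose and the interval from training to dissection are not given in the sources used here. The labels do not state that replicates were separate animals or which samples shared a litter, so the p-values rest on differences among these samples that may be technical, and take no account of litter. In a bulk sample, fewer cells of a type and less RNA per cell cannot be told apart.

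Voltage-gated calcium channels open on depolarisation and admit the calcium that triggers transmitter release, dendritic spikes and activity-dependent transcription. The alpha1 subunit forms the pore, while the beta and alpha2delta subunits govern its delivery to the membrane and its gating. Several members of the gamma family, the TARPs, serve instead as auxiliary subunits of AMPA receptors. Sodium channel alpha subunits carry the action potential, and their beta subunits modulate gating and act as adhesion molecules. HCN channels pass the hyperpolarisation-activated current that sets dendritic integration in pyramidal cells, and TRP channels are a diverse group of cation channels, many of them permeable to calcium.

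Signals are linear intensities per probe set. They were analysed as log2(signal + 6.06), and differences below are on that scale unless a signal is named. Of the 55 genes, 32 reached the filter at a signal of about 49.0 and were tested. The other 23, with mean signals of 2.19 to 45.0, were dim. Adjusted p-values are from limma with Benjamini-Hochberg adjustment over all 9520 probe sets tested, and a gene is said to rise or fall where this was under 0.05. Diet differences weight the 2 training states equally, and training differences the 3 diets. Beside them, 8 of 8 means that all 8 alcohol arrays lay on the side of the difference from the other diet's mean in their own training state, and likewise for the other contrasts.

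Total signal was 2.92e+06 to 3.13e+06 per array, and the number of arrays limits the precision. All 8 neuronal markers and 8 of the 10 hippocampal principal-cell markers measured reached the filter, with Dsp and Tdo2 below it. Control naive replicate 2 stood apart: it was the lowest of the 18 arrays for 15 of the 32 channel genes, or 46.9%, against 18.9% of all genes tested. It was also the highest for 18.9% of all genes tested, and for 0 of the channel genes. Both shares of all genes were the largest of any array, so it stood apart beyond the channel genes. Its mean channel level was 6.64, whereas that of control naive replicate 1 was 7.11, within the 7.05 to 7.20 of the alcohol and isocaloric arrays. Control naive replicate 1 and control trained replicate 2 were written with fewer digits than the other 16 arrays, are also the only ones for which the submitters' processing notes name a summary algorithm (MAS5), and are treated as a possible processing batch. As both are control samples, such a batch and the control diet cannot be fully told apart. Each of these facts touches the comparisons with the control diet, whose results are given below with and without the arrays concerned. The list of endothelial and mural cell markers, of which 5 of 10 measured genes were tested, moved with the same contrast. All 5 rose against control in alcohol and in isocaloric samples, and the summed signal of the list was 949 to 1177 with alcohol, 966 to 1089.9 with the isocaloric diet and 570.2 to 658 with the control diet. Neuronal markers summed to 10619 to 13528, 11507 to 12056 and 9662 to 11579 in the same order. Of these 8 markers, 2 rose with alcohol against control and 0 fell (median 0.14), where 11.3% of all probe sets were higher. With the isocaloric diet 0 rose and 0 fell (median 0.05). The log2 ratio of the Gapdh 3′ to 5′ probe sets, a sign of RNA integrity, averaged 0.257 with alcohol (SD 0.120, n = 8), 0.133 with the isocaloric diet (SD 0.0400, n = 6) and 0.258 with the control diet (SD 0.0732, n = 4). The part of the cell type markers in the channel results was not tested.

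Against the control diet, 8 of the 32 channel genes tested were higher with alcohol and 0 were lower. They were the sodium channel beta subunit Scn2b, the pore-forming calcium channel subunits Cacna1g, Cacna1d and Cacna1a, the calcium channel beta subunits Cacnb1 and Cacnb3, and the gamma family genes Cacng2 and Cacng3. Over all probe sets 11.3% were higher and 8.61% lower in this contrast, and with 1 probe set per gene 9.17% were higher. The median difference of the 32 genes was 0.21, against -0.01 over all genes tested, and 25 of the 32 values were above 0. With the isocaloric diet 5 of the 32 were higher than control and 0 were lower, where 4.24% of probe sets were higher, 2.80% were lower and 2.93% of genes were higher. The median was 0.19 against 0.01 for all genes, with 26 values above 0. The 2 comparisons share the 4 control arrays. All 5 genes of the isocaloric list were in the alcohol list, that is 100% of the one and 62.5% of the other, and 2.31% of all genes tested were higher in both.

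**Figure D1:**
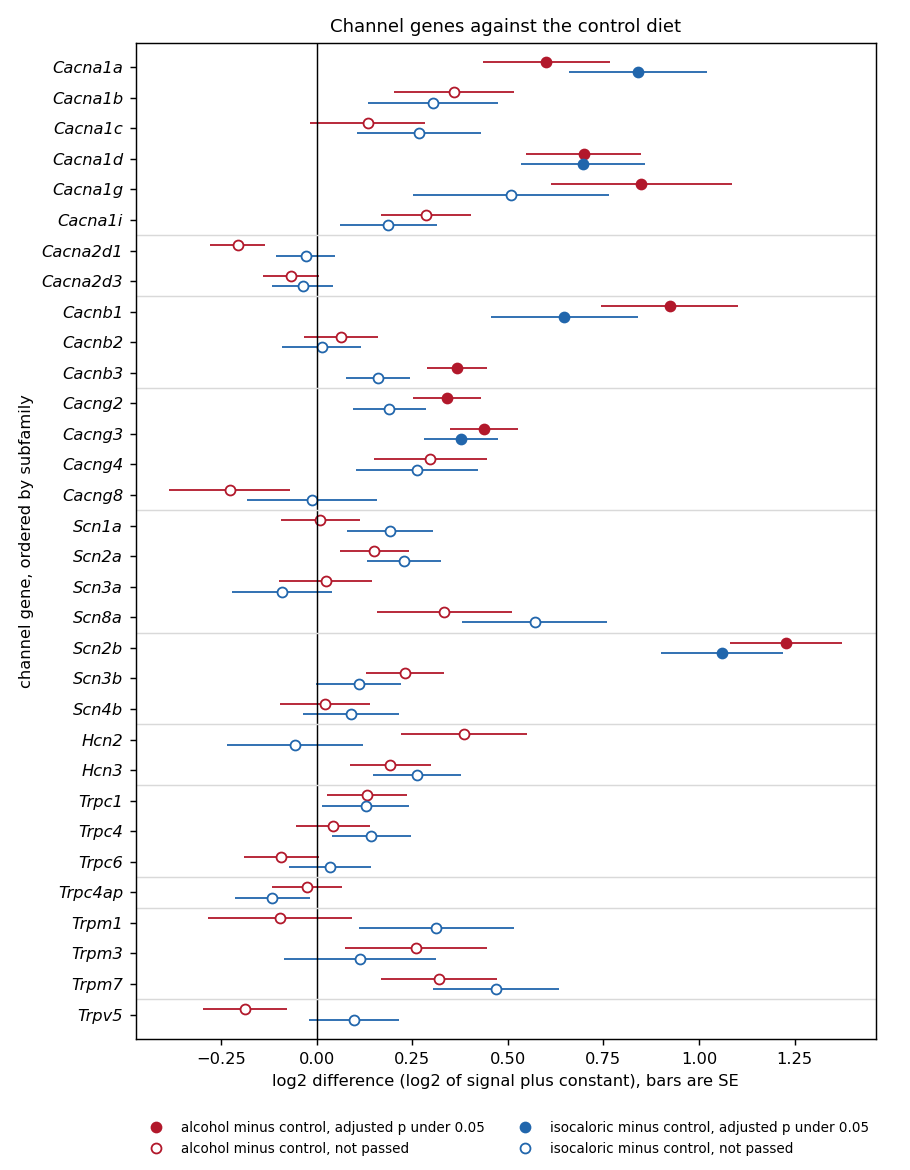
Differences of the 32 tested channel genes from the control diet, in log2 of signal plus constant, for alcohol (red) and isocaloric (blue) samples. Bars are standard errors, filled points have an adjusted p under 0.05 and grey lines separate subfamilies. All filled points, 8 for alcohol and 5 for isocaloric, lie to the right of 0, with Scn2b farthest out at 1.23 and 1.06.

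The largest difference was that of Scn2b, the beta2 subunit, which links covalently to the sodium channel pore and promotes its surface expression. Its signal was 24.96 and 37.9 on the control naive arrays and 37.3 and 40.9 on the control trained arrays. With the isocaloric diet the lowest, median and highest signals were 57.1, 80.9 and 92.2, and with alcohol 60.6, 89.8 and 109. Every control array thus lay below every array of the other 2 diets. Scn2b rose by 1.23 with alcohol (SE 0.15, adjusted p = 5.42e-05, 8 of 8) and by 1.06 with the isocaloric diet (SE 0.16, adjusted p = 0.00145, 6 of 6). Its lowest signal was on control naive replicate 1, the array whose mean channel level lay within that of the other 2 diets. Without control naive replicate 2 the differences were 1.35 (adjusted p = 0.000135) and 1.19 (adjusted p = 0.00200). Scn4b, the beta subunit gene that lies next to Scn2b in the RefSeq gene order, differed by 0.02 (SE 0.12, adjusted p = 0.915) and 0.09 (SE 0.13, adjusted p = 0.713). The beta3 subunit gene Scn3b differed by 0.23 (adjusted p = 0.122) and 0.11 (adjusted p = 0.579).

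Among the pore-forming calcium channel subunits, 3 of the 6 tested rose with alcohol and 2 with the isocaloric diet, and the remaining values were all above 0. Cacna1d encodes the L-type Cav1.3 pore, which opens at comparatively negative potentials. Its signal was 65.1 and 33.5 on the control naive arrays, 46.7 and 50.2 on the control trained arrays, from 55.6 through a median of 82.7 to 90.3 with the isocaloric diet, and from 66.3 through 81.6 to 107 with alcohol. The alcohol and control ranges did not overlap, while 1 isocaloric array lay below the highest control array. Cacna1d rose by 0.70 in each comparison, with SE 0.15, adjusted p = 0.00433 and 8 of 8 arrays for alcohol, and SE 0.16, adjusted p = 0.0176 and 6 of 6 arrays for the isocaloric diet. Without control naive replicate 2 the alcohol difference was 0.49 (adjusted p = 0.0530). The other 2 probe sets of Cacna1d, both below the filter, differed by -0.17 (adjusted p = 0.660) and -0.12 (adjusted p = 0.752) with alcohol in the fit without a filter, opposite in sign to the chosen one. With the isocaloric diet they differed by 0.35 (adjusted p = 0.437) and -0.03 (adjusted p = 0.976). With the mean of all probe sets of the gene neither call was kept, at 0.14 (adjusted p = 0.531) and 0.34 (adjusted p = 0.167).

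Cacna1a encodes the P/Q-type Cav2.1 pore, the main presynaptic calcium channel at many central synapses. Its control signals were 56.3 and 34.3 in naive and 45.8 and 38.9 in trained samples. The isocaloric arrays read 64.1 at the lowest, 75.5 at the median and 115 at the highest, all above control, and the alcohol arrays 44.8, 71.3 and 94.3. A pair of alcohol arrays, at 44.8 and 51.6, lay within the control range. Cacna1a rose by 0.60 with alcohol (SE 0.17, adjusted p = 0.0184, 8 of 8) and by 0.84 with the isocaloric diet (SE 0.18, adjusted p = 0.0131, 6 of 6), and neither call was kept without control naive replicate 2 or without control trained replicate 2. A second tested probe set of the gene differed by -0.30 with alcohol (adjusted p = 0.162) and by 0.16 with the isocaloric diet (adjusted p = 0.578), so these probe sets had opposite signs for alcohol. The other 2, dimmer and below the filter, differed by 0.34 (adjusted p = 0.199) and 0.25 (adjusted p = 0.663) with alcohol in the fit without a filter. With the mean of all probe sets of the gene the differences were 0.22 (adjusted p = 0.301) and 0.44 (adjusted p = 0.0942).

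Cacna1g encodes the T-type Cav3.1 pore, a low-voltage-activated channel. The control arrays were spread widely, at 100.5 and 41.0 in naive and 30.7 and 65.0 in trained samples. Alcohol arrays ran from 46.7 through a median of 102 to 145, overlapping the control range, and isocaloric arrays from 67.9 through 82.2 to 89.7. Cacna1g rose by 0.85 with alcohol (SE 0.24, adjusted p = 0.0188, 7 of 8), a call that was lost without control naive replicate 2 (0.55, adjusted p = 0.189) or control trained replicate 1. The isocaloric difference was 0.51 (SE 0.26, adjusted p = 0.226). Of the other pores, Cacna1b (N-type Cav2.2) differed by 0.36 (adjusted p = 0.114) and 0.30 (adjusted p = 0.274), Cacna1c (L-type Cav1.2) by 0.13 (adjusted p = 0.569) and 0.27 (adjusted p = 0.320), and Cacna1i (T-type Cav3.3) by 0.29 (adjusted p = 0.0949) and 0.19 (adjusted p = 0.376), alcohol first. Cacna1b had signals of 208 and 88.2 on the control naive arrays, so that the control samples spanned more than the 147 to 218 of the alcohol samples. A second, dimmer probe set of Cacna1b, below the filter, differed by 1.12 with alcohol in the fit without a filter (SE 0.27, adjusted p = 0.0159). With the mean of all probe sets of the gene Cacna1b passed for alcohol, at 0.74 (adjusted p = 0.0143).

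**Figure D2:**
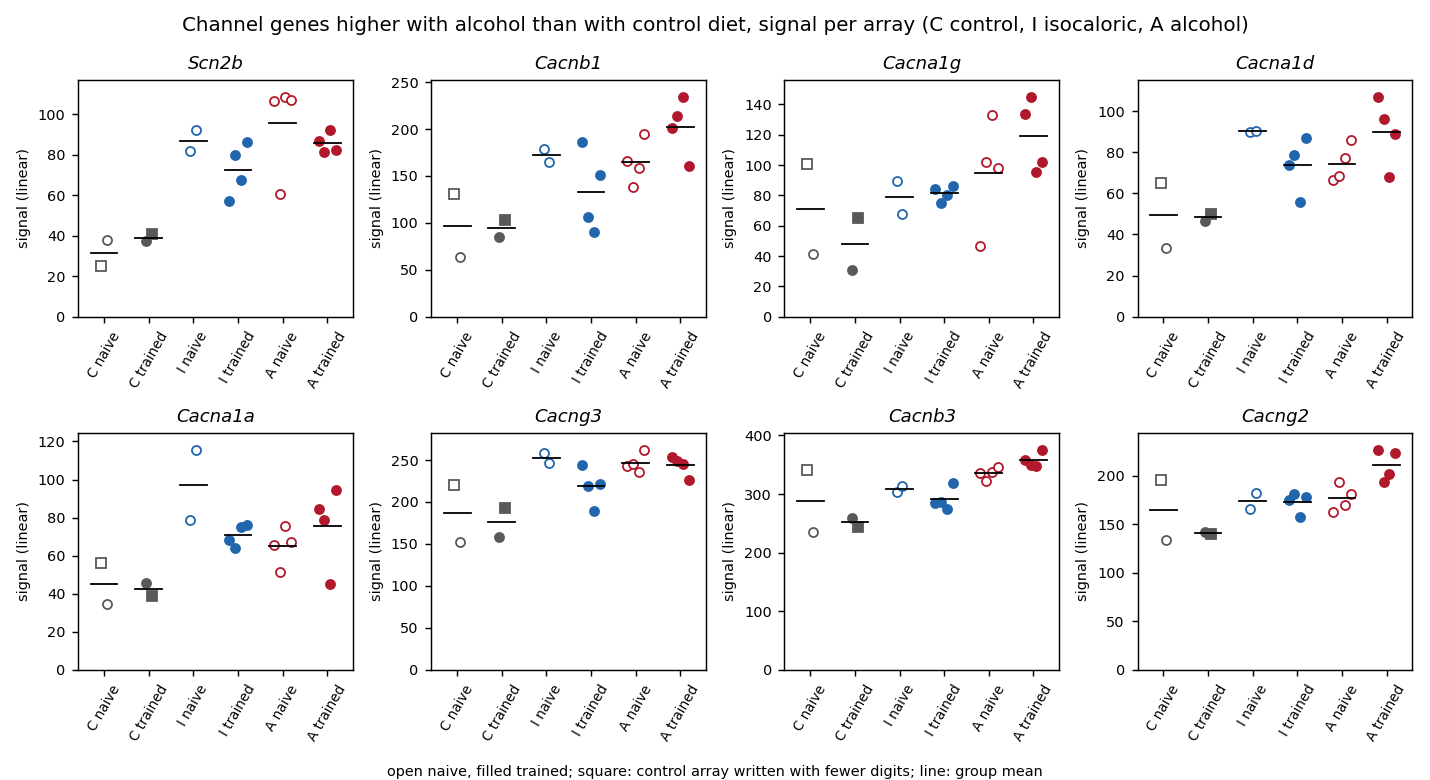
Signal on each array for the 8 channel genes that rose with alcohol against control, by diet and training state (open naive, filled trained, line at the group mean). Squares mark the 2 control arrays written with fewer digits. In Scn2b all 4 control arrays, at 24.96 to 40.9, lie below the other 14, whereas in Cacnb3, Cacng2 and Cacna1g control naive replicate 1 lies among the arrays of the other 2 diets.

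The cytoplasmic beta subunits were divided. Cacnb1 had control signals of 131 and 63.2 in naive and 85.2 and 103 in trained samples. The alcohol arrays read 138 at the lowest, 181 at the median and 234 at the highest, so no alcohol array overlapped control. Isocaloric arrays ran from 90.3 through 158 to 186, and its 2 lowest arrays, at 90.3 and 106, lay below the highest control array. Cacnb1 rose by 0.92 with alcohol (SE 0.18, adjusted p = 0.00236, 8 of 8) and by 0.65 with the isocaloric diet (SE 0.19, adjusted p = 0.0492, 5 of 6). The isocaloric call was lost in 24 of 30 alternative settings and is marginal.

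Cacnb3, a beta subunit abundant in brain, had control signals of 342 and 236 in naive and 259 and 244 in trained samples. Its alcohol signals were 322 at the lowest, 347 at the median and 375 at the highest, and its isocaloric signals 275, 295 and 319. The isocaloric range therefore lay below the alcohol range, and the highest control array lay inside the latter. Cacnb3 rose by 0.37 with alcohol (SE 0.08, adjusted p = 0.00392, 8 of 8) and by 0.24 (adjusted p = 0.0304) without control naive replicate 2, and differed by 0.16 with the isocaloric diet (SE 0.08, adjusted p = 0.238, 6 of 6). Cacnb2, the remaining tested beta subunit, differed by 0.06 (adjusted p = 0.681) and 0.01 (adjusted p = 0.957). A second probe set of Cacnb2 had a negative value with alcohol, -0.12 (adjusted p = 0.541).

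In the gamma family, 2 of 4 tested genes rose with alcohol and 1 with the isocaloric diet. Cacng3 encodes the TARP gamma-3. It had control signals of 221 and 153 in naive and 158 and 193 in trained samples, against 226 to 262 with alcohol (median 245) and 190 to 258 with the isocaloric diet (median 233). Alcohol and control did not overlap. Cacng3 rose by 0.44 with alcohol (SE 0.09, adjusted p = 0.00332, 8 of 8) and by 0.38 with the isocaloric diet (SE 0.10, adjusted p = 0.0276, 6 of 6).

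Cacng2 encodes stargazin, the founding TARP. Its control signals were 196 and 134 in naive and 142 and 139.9 in trained samples, against 163 to 227 with alcohol (median 194) and 158 to 182 with the isocaloric diet (median 177). Control naive replicate 1 lay above every isocaloric array, and the other 3 control arrays lay below all 14 arrays of the other 2 diets. Cacng2 rose by 0.34 with alcohol (SE 0.09, adjusted p = 0.0130, 8 of 8), and without control naive replicate 2 the value was 0.21 (adjusted p = 0.132). It differed by 0.19 with the isocaloric diet (SE 0.10, adjusted p = 0.225). A second tested probe set differed by 0.03 with alcohol (adjusted p = 0.926), and with the mean of both the value was 0.19 (adjusted p = 0.325). Cacng8, the TARP gamma-8 that is enriched in hippocampus, differed by -0.23 (SE 0.16, adjusted p = 0.327) and -0.01 (adjusted p = 0.982). Its alcohol signals were widely spread, from 64.0 to 143, around the 96.3 to 122 of the control samples. Cacng4 differed by 0.30 (adjusted p = 0.164) and 0.26 (adjusted p = 0.319).

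Both tested alpha2delta subunits had values below 0. Cacna2d1 had signals of 270.2 and 232 in control naive, 254 and 252 in control trained, 224 to 273 in isocaloric (median 242) and 198 to 244 in alcohol samples (median 212). It differed from control by -0.21 with alcohol (SE 0.07, adjusted p = 0.0504, 8 of 8), just outside the threshold, and by -0.03 with the isocaloric diet (adjusted p = 0.872). It passed as lower with alcohol under quantile normalisation (-0.21, adjusted p = 0.0430). Cacna2d3 differed by -0.07 (adjusted p = 0.560) and -0.04 (adjusted p = 0.831).

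No sodium channel alpha subunit, HCN or TRP gene passed the test against control. For the alpha subunits of the adult brain the alcohol and isocaloric differences were 0.01 (adjusted p = 0.957) and 0.19 (adjusted p = 0.297) for Scn1a (Nav1.1), 0.15 (adjusted p = 0.251) and 0.23 (adjusted p = 0.149) for Scn2a (Nav1.2), and 0.33 (adjusted p = 0.189) and 0.57 (adjusted p = 0.0726) for Scn8a (Nav1.6). Hcn2 differed by 0.38 with alcohol (adjusted p = 0.107) and by -0.06 with the isocaloric diet (adjusted p = 0.893). Hcn3 differed by 0.19 (adjusted p = 0.212) and 0.26 (adjusted p = 0.162). Trpc4, a receptor-operated channel of hippocampal neurons, differed by 0.04 (adjusted p = 0.787) and 0.14 (adjusted p = 0.409). The 7 tested TRP channel genes ranged from -0.19 (Trpv5) to 0.32 (Trpm7) with alcohol, and from 0.04 (Trpc6) to 0.47 (Trpm7) with the isocaloric diet. Trpc4ap differed by -0.03 (adjusted p = 0.874) and -0.12 (adjusted p = 0.499), and Trpc5 was below the filter.

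With the Gapdh log2 ratio as a covariate the same 8 genes rose with alcohol, and Scn2b, Cacna1a, Cacna1d and Trpm7 (0.73, adjusted p = 0.0163) rose with the isocaloric diet. The counts against control depended on single arrays. Without control naive replicate 2, which was low in many channel genes, 4 genes rose with alcohol (Scn2b, Cacnb1, Cacnb3 and Cacng3) and Scn2b alone with the isocaloric diet. More genes rose in both comparisons when control naive replicate 1, or both arrays written with fewer digits, were left out. In those fits a lone control array is assumed to vary like the other groups. The share of all probe sets called in them is not given here, so their counts are not read as a result about channels. The isocaloric count was 2 without isocaloric naive replicate 1 or control trained replicate 1 (Scn2b and Cacna1a) and without control trained replicate 2 (Scn2b and Cacng3), and 1 without isocaloric naive replicate 2 (Scn2b). Alcohol lay above control on every array in 4 of the 32 genes (Cacna1d, Cacnb1, Cacng3 and Scn2b), where 2.77% of all genes did so, and the isocaloric diet in 2 (Cacna1a and Scn2b), where 2.59% did so. Centring each array on its median moved the share of higher calls over all probe sets from 56.7% to 46.4% for alcohol and from 60.2% to 19.1% for the isocaloric diet, shifting the median of all probe sets in the latter from 0.02 to -0.09. Under that scaling 8 channel genes rose and 1 fell with alcohol, Cacna2d1 (-0.24, adjusted p = 0.0239), and 3 rose and 0 fell with the isocaloric diet.

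Promoter sequence from RefSeq (GRCr8, 250 bases before to 50 after the start) was matched for 42 of the 55 genes and for 6 of the 8 that rose with alcohol. Those of the 4 genes that rose against control in both comparisons and had an entry are shown, read 5′ to 3′ on the gene's strand. Capitals mark a match to any of 4 motifs on either strand. The GC box was searched as GGGCGG. The core of the cAMP response element was searched as TGACG, and the TATA box, by contrast, as TATAAA. For the element bound by the neuronal repressor REST, the stretch searched was CAGCACC.
Scn2b: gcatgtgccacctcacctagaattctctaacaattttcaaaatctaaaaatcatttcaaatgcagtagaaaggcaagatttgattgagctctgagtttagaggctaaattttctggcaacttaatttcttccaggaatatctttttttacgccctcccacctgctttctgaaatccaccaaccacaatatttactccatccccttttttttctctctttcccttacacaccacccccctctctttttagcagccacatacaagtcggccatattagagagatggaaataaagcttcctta
Cacng3: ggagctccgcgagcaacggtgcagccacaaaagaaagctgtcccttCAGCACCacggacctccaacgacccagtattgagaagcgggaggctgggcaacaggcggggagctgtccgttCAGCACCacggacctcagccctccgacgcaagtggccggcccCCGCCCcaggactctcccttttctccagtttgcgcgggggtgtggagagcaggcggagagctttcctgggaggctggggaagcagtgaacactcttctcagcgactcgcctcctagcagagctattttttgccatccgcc
Cacna1d: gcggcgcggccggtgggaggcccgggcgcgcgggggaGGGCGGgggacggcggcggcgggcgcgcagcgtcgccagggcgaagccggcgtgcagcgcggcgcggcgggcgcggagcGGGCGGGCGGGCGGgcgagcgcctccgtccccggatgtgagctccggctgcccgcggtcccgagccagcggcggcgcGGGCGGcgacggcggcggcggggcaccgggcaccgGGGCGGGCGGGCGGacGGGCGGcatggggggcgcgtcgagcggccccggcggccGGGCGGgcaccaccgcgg
Cacna1a: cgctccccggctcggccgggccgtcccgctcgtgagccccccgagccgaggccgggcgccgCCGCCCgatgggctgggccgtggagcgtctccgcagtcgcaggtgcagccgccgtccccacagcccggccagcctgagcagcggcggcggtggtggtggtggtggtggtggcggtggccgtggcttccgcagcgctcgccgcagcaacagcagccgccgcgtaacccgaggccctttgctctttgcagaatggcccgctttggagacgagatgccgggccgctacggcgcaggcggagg

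The Scn2b window lies at chr8:54322133-54322432 on the plus strand and had a GC content of 39.0%, below the 52.3% median of all promoters of that length. None of the 4 motifs was found in it. The Cacng3 window (chr1:186632312-186632611, plus strand) had 63.0% GC, 1 GC box and 2 copies of the REST element stretch. The Cacna1d window (chr16:5527500-5527799, minus strand) had 88.7% GC and 10 GC boxes, counting overlapping matches. That of Cacna1a (chr19:40650419-40650718, minus strand) had 76.0% GC and 1 GC box. The 50 bases after its annotated start begin with ATG, so this window may be untranslated leader rather than promoter, which was not tested. Over the 42 channel gene promoters, the GC box was found in 42.9%, the cAMP response core in 23.8%, the TATA box in 7.14% and the REST element stretch in 4.76%, against 34.9%, 22.0%, 14.3% and 6.91% of all 27457 promoters. The windows shown differed widely in base composition, and no motif of the 4 occurred in all of them. Whether these genes share a regulator was not tested.

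The comparison of alcohol with the isocaloric diet separates alcohol from calorie intake. In limma's test 0 of the 32 channel genes passed, where 3.06% of all probe sets did, and 5 had an unadjusted p under 0.05. The median of the 32 was 0.00, against -0.01 for all genes, with 17 values above 0. The smallest p-values were those of Hcn2 and Cacnb3. Hcn2, a subunit of the hyperpolarisation-activated channel, had signals of 252 to 310 in alcohol naive, 153 to 333 in alcohol trained, 188 and 194 in isocaloric naive and 152 to 219.8 in isocaloric trained samples. The alcohol naive arrays all lay above the isocaloric arrays, while the alcohol trained arrays ran from within the isocaloric range to above it. The difference was 0.44 (SE 0.15, adjusted p = 0.104, 7 of 8). Hcn2 passed with median centring (0.51, adjusted p = 0.0353) and array weights (0.38, adjusted p = 0.0458), and not with quantile normalisation. Cacnb3 lay higher on each of the 8 alcohol arrays than on any of the 6 isocaloric arrays. The share of all genes so separated was not counted. Cacnb3 differed by 0.21 (SE 0.07, adjusted p = 0.105). With array weights (adjusted p = 0.0150), on only the groups compared (adjusted p = 0.0271) and with median centring (0.28, adjusted p = 0.0205) it passed, and not with quantile normalisation. Median centring called 559 probe sets higher, against 140 in the main fit. It passed in the fit without the control arrays written with fewer digits (adjusted p = 0.0274) and without control naive replicate 1 (adjusted p = 0.0215) or 2 (adjusted p = 0.0212), where the difference itself is the same and the shared estimate of spread is not. The genes that had risen against control with alcohol differed from isocaloric by values that did not pass, and Cacna1d differed by 0.00.

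Within training states, 0 of 32 genes passed between alcohol and isocaloric trained samples, where 0.399% of probe sets did, and 0 between naive samples, where 0.0735% did. Unadjusted, 4 and 5 were under 0.05. Among trained samples Cacnb3 differed by 0.29 (SE 0.09, adjusted p = 0.148, 4 of 4) and Scn3a by -0.44 (SE 0.14, adjusted p = 0.158, 4 of 4). Among naive samples Scn3a differed by 0.67 (SE 0.17, adjusted p = 0.122, 4 of 4) and Cacna2d1 by -0.24 (SE 0.10, adjusted p = 0.351, 4 of 4). Scn3a encodes Nav1.3, the alpha subunit best known from embryonic and injured neurons. Its signal was 67.7 on both isocaloric naive arrays and 116, 117, 129 and 144 on the isocaloric trained arrays. With alcohol it was 87.7 to 128 in naive and 79.5 to 107 in trained samples, and with the control diet 105 and 108 in naive and 73.1 and 116 in trained samples. The isocaloric naive arrays were thus the lowest of all 18, and the order of alcohol and isocaloric samples was opposite in the 2 training states.

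**Figure D3:**
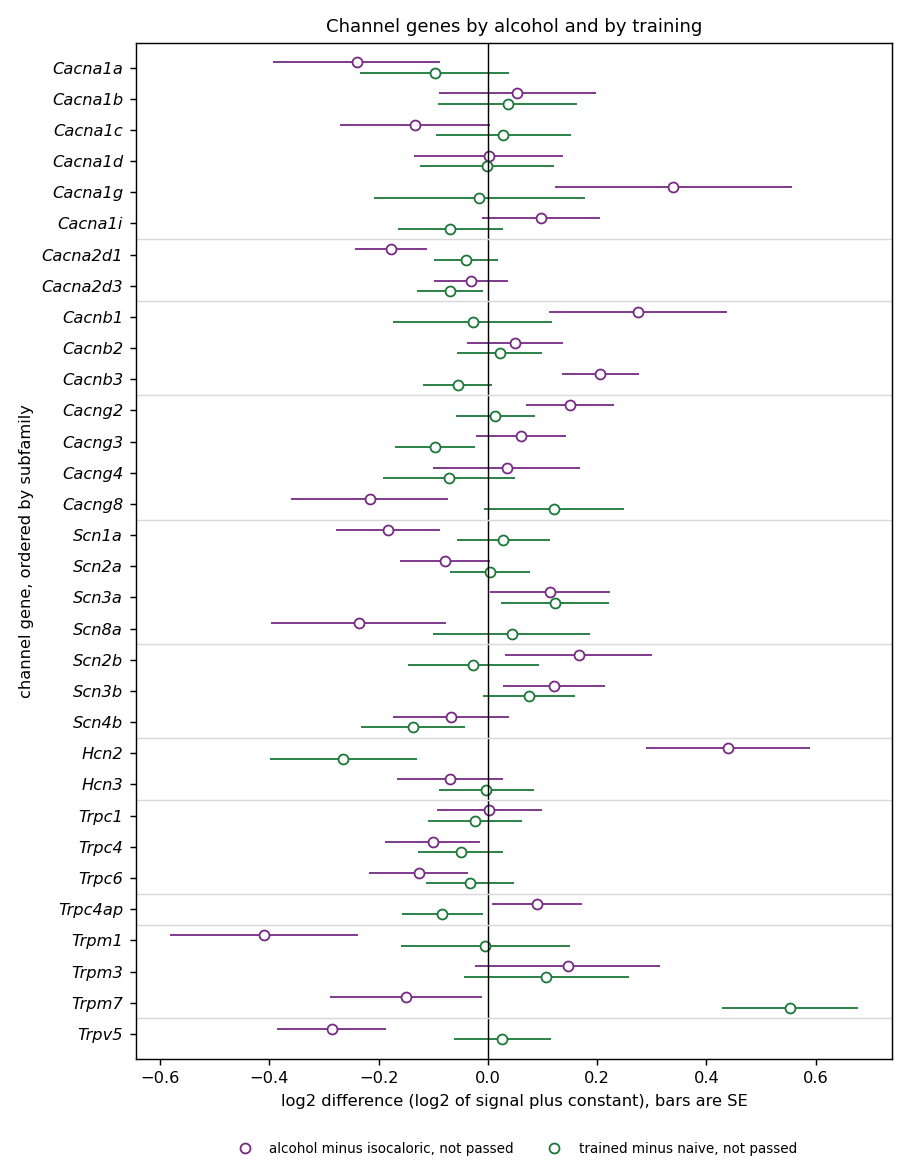
Differences of the 32 tested channel genes for alcohol minus isocaloric (purple) and trained minus naive (green), in log2 of signal plus constant with standard errors. No point passed the adjusted threshold. The values farthest from 0 are Hcn2 (0.44) and Trpm1 (-0.41) for alcohol and Trpm7 (0.55) for training.

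Between trained and naive samples, averaged over diets, 0 of the 32 genes passed, where 0.0105% of probe sets did, and 1 had an unadjusted p under 0.05. This was Trpm7, a magnesium- and calcium-permeable channel fused to a kinase. Its signals were 72.0, 75.8, 87.9 and 114 in alcohol trained against 35.4, 41.5, 57.4 and 59.2 in alcohol naive samples, 79.1, 79.9, 92.4 and 101 in isocaloric trained against 47.2 and 72.2 in isocaloric naive samples, and 53.2 and 61.3 in control trained against 38.0 and 50.8 in control naive samples. Trained and naive arrays did not overlap within any of the 3 diets, but the share of all genes so separated was not counted. The difference was 0.55 (SE 0.12, adjusted p = 0.521, 10 of 10). It passed when control naive replicate 1 was left out, at 0.61 (adjusted p = 0.0321). A second, dimmer probe set of Trpm7, below the filter, differed by 0.16 (adjusted p = 0.978) in the fit without a filter, and by -0.45 (adjusted p = 0.864) among isocaloric samples, opposite in sign to the first. The second smallest p was that of Hcn2, at -0.26 (SE 0.13, adjusted p = 0.832, 6 of 10).

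Within single diets 0 of 32 genes passed for training, against 0% of probe sets in alcohol samples, 0% in isocaloric samples and 0.0315% in control samples. The numbers with an unadjusted p under 0.05 were 2, 2 and 3. In alcohol samples Trpm7 differed by 0.79 (SE 0.18, adjusted p = 0.183) and Cacng2 by 0.25 (SE 0.10, adjusted p = 0.507), and in isocaloric samples Scn3a by 0.84 (SE 0.17, adjusted p = 0.185) and Trpm7 by 0.54 (SE 0.22, adjusted p = 0.642). Each of these values had 4 of 4 trained arrays on its side. In control samples Trpc4ap differed by -0.43 (SE 0.15, adjusted p = 0.280) and Hcn3 by 0.42 (SE 0.17, adjusted p = 0.383), each from 2 against 2 arrays. The interaction of alcohol against isocaloric with training passed in 0 of 32 genes and in 0% of probe sets, and 2 genes had an unadjusted p under 0.05. Scn3a had the smallest p, with a difference of -1.12 between the 2 alcohol effects (SE 0.22, adjusted p = 0.326). It was lower in trained than in naive samples with alcohol and higher with the isocaloric diet, by values of -0.28 and 0.84 that did not pass on their own. Cacnb1 followed at 0.69 (SE 0.33, adjusted p = 1.00).

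**Figure D4:**
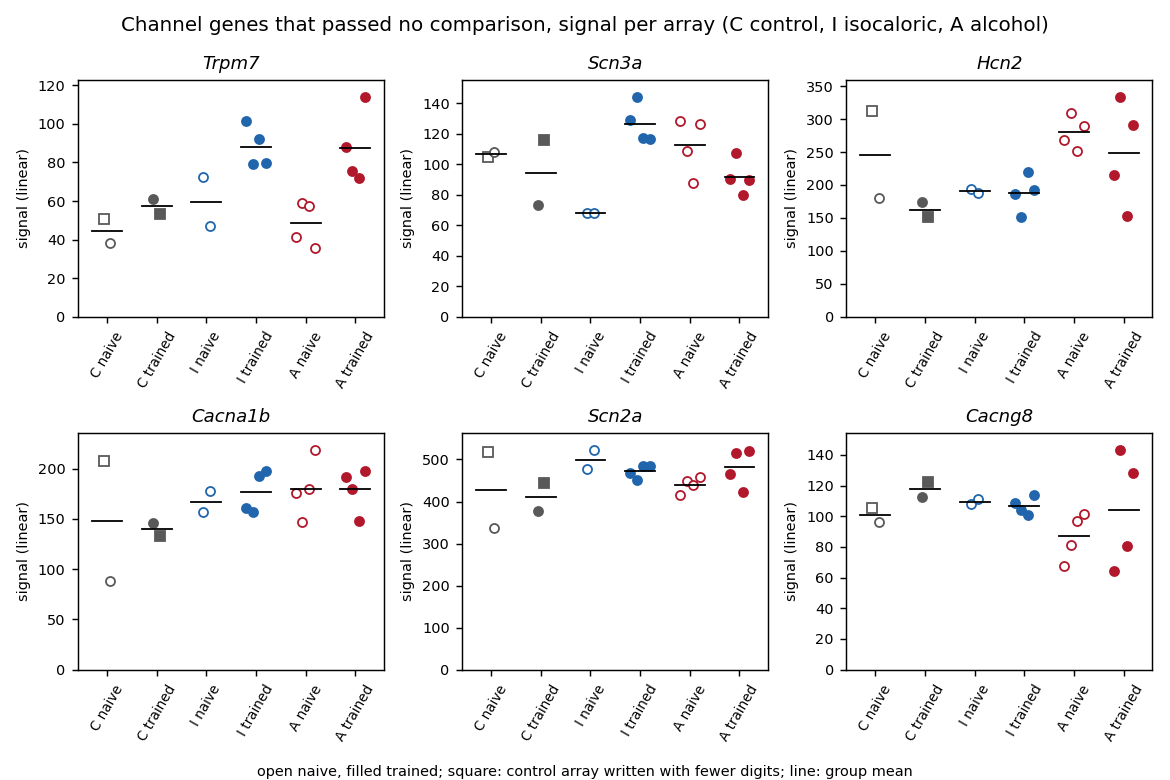
Signal on each array for 6 channel genes that passed no comparison in the main fit, by diet and training state. Open points are naive, filled points trained, lines group means, and squares the control arrays written with fewer digits. Trained arrays lie above naive arrays of the same diet in Trpm7, and both isocaloric naive arrays of Scn3a lie at 67.7, below the other arrays.

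Genes that handle calcium after entry were compared with the channels through a list of stores, pumps and exchangers, of which 22 of 27 were measured and 18 tested. With alcohol against control 2 rose and 2 fell, near the 11.3% of all probe sets that were higher and the 8.61% that were lower. The plasma membrane pump Atp2b2 rose by 0.29 (adjusted p = 0.0158) and the reticulum pump Atp2a2 by 0.23 (adjusted p = 0.0235), while the sodium-calcium exchanger Slc8a1 differed by -0.25 (adjusted p = 0.0419) and the inositol trisphosphate receptor Itpr1 by -0.21 (adjusted p = 0.0340). None of the 18 passed between isocaloric and control, between alcohol and isocaloric, or for training. The median against control was 0.07 in each case.

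Of 36 listed channel partners and scaffolds, 29 were measured and 23 tested. With alcohol against control 6 rose and 2 fell, where 11.3% of all probe sets were higher and 8.61% lower, and the median was 0.08. Those that rose were Rimbp2, which tethers calcium channels at release sites (0.54, adjusted p = 0.0106), the calcium-binding modulator Cabp1 (0.39, adjusted p = 0.0265), the G protein subunit Gnao1 (0.38, adjusted p = 0.00752), the axon initial segment spectrin Sptbn4 (0.37, adjusted p = 0.0356), the HCN trafficking subunit Pex5l (0.30, adjusted p = 0.0316) and the adaptor Apba1 (0.27, adjusted p = 0.0304). Fgf14, an intracellular sodium channel modulator, fell by 0.43 (adjusted p = 0.0345) and the ubiquitin ligase Nedd4 by 0.19 (adjusted p = 0.0416). With the isocaloric diet 1 partner of the 23 rose, where 4.24% of probe sets did: Gnao1, by 0.51 (adjusted p = 0.00665). Between alcohol and isocaloric 1 partner fell, the active-zone protein Rims1, by 0.34 (adjusted p = 0.0453), where 3.06% of probe sets differed in either direction. None passed for training.

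The 23 dim channel genes were Cacna1e, Cacna1f, Cacna1h, Cacna1s, Cacnb4, Cacng1, Cacng5, Cacng6, Cacng7, Hcn4, Scn4a, Scn7a, Scn9a, Scn10a, Scn11a, Trpc2, Trpc5, Trpm4, Trpm8, Trpv1, Trpv2, Trpv4 and Trpv6. They include the muscle pores Cacna1s and Scn4a, the sensory neuron channels Scn10a, Scn11a, Trpm8 and Trpv1, and the retinal pore Cacna1f. In the fit without a filter 0 of them passed in any of the 10 comparisons, with alcohol minus control values of -0.43 to 0.54.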

How the data were processed

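The files analysed are a table that the authors deposited, holding 1 linear intensity for each of 15923 probe sets on each of 18 arrays. The submitters' processing notes name MAS5 (an Affymetrix probe set summary) for 2 samples, the control arrays written with fewer digits; how the other 16 were summarised is not given here. Total intensity per array is alike, so a change of total RNA cannot be seen. The 57 Affymetrix control probe sets were left out, gene names came from the platform annotation, and all 55 channel symbols were the same in RefSeq. The channel genes and the lists of partners, stores and markers were chosen with earlier results of these data known.

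Intensities were transformed as log2(value + 6.06), the constant being their 10th percentile, and probe sets with a mean under the 40th percentile were left out, leaving 9520. The models were fitted with limma 3.58.1 in R 4.3.3: lmFit on the 6 group means over all 18 arrays, so that the groups share 1 estimate of spread, then eBayes with a trend. Tests were two-sided with Benjamini-Hochberg adjustment within a comparison and a threshold of 0.05. The scripts were tested on simulated data. Genes past the threshold are described in full; where none passed, the 2 with the smallest p are named, as are Cacna1a, Cacna1b, Cacna1c, Cacna1d, Cacna1g, Cacng8, Scn1a, Scn2a, Scn8a, Hcn2 and Trpc4, and second probe sets of opposite sign. The other named genes complete their subfamily. Alternatives were a constant of 32, no filter or one at the 60th percentile, quantile normalisation, median centring, a replicate block, fits on only the groups compared, array weights, the Gapdh 3′ to 5′ log2 ratio as a covariate, the mean of all probe sets of a gene, and leaving out single arrays, the 2 control arrays with fewer digits or the 4 arrays with Ttr above 1000. Python 3.11.15, pandas 2.3.3, numpy 2.4.6 and matplotlib 3.10.9 served for tables and plots.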

Additional observations from a re-analysis of the deposited data

Results flagged for a closer look

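In 63 groups of 4 arrays from 21 named genes, 3 held 1 array far from the others, where chance alone gives about 1 in 20. Scn2b in alcohol naive samples read 60.6 on replicate 2, against 107 to 109 on the other 3 arrays. Trpc4 in alcohol trained samples read 72.9 on replicate 4, against 86.7 to 88.8. Hcn3 in isocaloric trained samples read 65.5 on replicate 2, against 60.04 to 60.45. Alcohol naive replicate 2 and alcohol trained replicate 4 are among the 4 arrays with Ttr, the choroid plexus transcript, above 1000, and its part in these values was not tested.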

How the results depend on the processing

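Of 300 counts of channel genes under alternative settings, 268 were within 1.5 times the main count. The main count was 0 in every comparison except the 2 against control. The pooled 268 therefore does not show that the counts against control were stable. Of 383 values of single genes 323 kept their side of the threshold, 60 lost it and 0 reversed. The cause of each change below was not tested, except that the stricter filter tested only 15 channel genes. The share of all probe sets called under each alternative is not given beside these counts, so they are not read as a result about channels. For alcohol against control (8 genes) the count was 5 with the stricter filter, 14 without the control arrays of fewer digits and 5 without the 4 arrays high in Ttr, and single arrays left out gave 4 to 16. With the stricter filter 1 of the 5, Cacna2d1, was lower (-0.21, adjusted p = 0.0460). For isocaloric against control (5 genes) it was 2 with the stricter filter, 3 with median centring, 14 without the control arrays of fewer digits, 1 without the arrays high in Ttr, 2 on only the groups compared and 2 with the mean of all probe sets, and single arrays gave 1 to 17. For alcohol against isocaloric (0 genes) it was 2 with median centring, 3 with array weights, and 1 each without the control arrays of fewer digits, on only the groups compared and with the mean of all probe sets (Trpm7, -0.40, adjusted p = 0.0357), and single arrays gave 0 to 1. In trained samples alone this comparison gave 1 without the control arrays of fewer digits and 0 to 1 without single arrays, and in naive samples 1 with array weights. Training in isocaloric samples gave 1 with array weights. Without single arrays, training gave 0 to 1 overall and 0 to 2 in control samples.

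Scn2b kept its call in both comparisons in the 29 alternatives that tested it (its signal is under the stricter filter), and Cacnb1, Cacnb3 and Cacng3 kept theirs for alcohol in all 30. Replicate numbers did not pair the arrays: 36 same-numbered pairs correlated at -0.23 to 0.13, and 4 were over 0.1. With a replicate block 6 genes rose with alcohol and 4 with the isocaloric diet. The 4 control arrays, and the low signals of 23 genes, limit what can be seen.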
